A study of Homo sapiens with 36 samples.

Results

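The comparison described here is the change with time of the response of LNCaP cells to ribociclib, taken across all genes: the difference between ribociclib and vehicle at 72 h minus the same difference at 24 h. LNCaP is an androgen-responsive human prostate cancer line that retains the retinoblastoma protein RB. Ribociclib inhibits both CDK4 and CDK6. The series profiled total RNA from 36 libraries of vehicle-treated cells and of cells given AU2-94, atirmociclib or ribociclib, in 12 groups of 3 replicates, and the comparison rests on 12 of them: vehicle for 24 h, ribociclib at 2 µM for 24 h, vehicle for 72 h and ribociclib at 2 µM for 72 h, with 3 libraries in each group. These members were chosen by agent and dose from the sample labels. The vehicle libraries carry the same 2 µM label as the ribociclib libraries, and the same vehicle libraries served all agents at that time. All cells were plated 1 day before treatment. Wells meant for 24 h of treatment received more cells than wells meant for 72 h, so plating density and treatment time cannot be told apart in any single group. They are shared by vehicle and ribociclib at each time. The change with time of the ribociclib effect therefore spans both treatment time and plating density, whose parts cannot be told apart. The labels call the replicate number a batch. The study's methods describe the 3 replicates of each condition as biological, all of 1 cell line.

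Normalised counts summed to 20675156 to 21903096 per library over 29872 genes. Replicates of a group correlated at 0.980 to 0.984 across genes (12 pairs), and none were identical. Genes encoded on the mitochondrial genome took 6.45% to 7.76% of each library. All 12 markers of luminal prostate epithelium were above 3 normalised counts in every group, with summed levels of 112500 to 118200 in vehicle and 157100 to 181400 under ribociclib. Summed levels of the basal, neuroendocrine, fibroblast and smooth muscle, immune and endothelial markers stayed at or below 1108 in every library.

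Cyclin D with CDK4 or CDK6 phosphorylates RB, which otherwise holds E2F transcription factors in check. E2F activity turns on genes for origin licensing, DNA synthesis and histones ahead of S phase. A later wave of mitotic genes is driven by MYB-MuvB and FOXM1 and is repressed by the DREAM complex when RB family proteins are active. In luminal prostate cells androgens drive a separate programme that includes the secreted protease genes KLK2 and KLK3, while UGT2B enzymes add glucuronic acid to androgens and so clear them. In bulk RNA from an asynchronous culture, fewer cells in a cycle phase and less RNA per cell cannot be told apart.

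Effects of ribociclib that were higher at 72 h than at 24 h outnumbered those that were lower among the large changes with time. Of 16850 genes tested with limma on log2(normalised count + 1), 596 had an effect of ribociclib that was higher at 72 h than at 24 h and 85 had a lower one, at a Benjamini-Hochberg adjusted p of at most 0.05 and a change of at least 1 on the log2 scale. These are 3.54% and 0.504% of the genes tested, or 4.04% in all. At the adjusted p alone, 1770 genes (10.5%) were higher and 1628 genes (9.66%) lower. Quantile normalisation in place of the deposited scaling reduced the share of higher calls from 87.5% to 76.0%. The median change over all genes was 0.00. A total of 33 called genes had a group with all libraries at or under 3 normalised counts, and their fitted values are no measure of fold.

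The 681 called genes fell into 6 patterns plus a remainder of 46 (the plot of effects at 24 h against 72 h). A fall that faded was the most common pattern. It held 289 genes, with a median effect of -1.77 at 24 h and -0.29 at 72 h, and 122 of these were still past an adjusted p of 0.05 in the same direction at 72 h. A rise that grew was found for 182 genes, whose median effect went from -0.21 to 1.50. Only 21 of the 182 were past the adjusted p at both times, so most were rises past it at 72 h alone. A fall turned into a rise for 91 genes, from a median of -0.61 to 0.72, with the adjusted p past the threshold at both times. The patterns made of rises that were lost or of later falls were smaller. A total of 40 genes had a rise that faded (1.37 to -0.24), 22 a fall that grew (0.40 to -1.03) and 11 a rise that turned into a fall (0.67 to -0.66). These 3 counts were 63, 41 and 21 under quantile normalisation. Of the 22 grown falls, 1 was past the adjusted p at both times, and the others were past it at 72 h alone. With a mean of at least 100 normalised counts required, the grown rises numbered 62 and the falls turned to rises 84. The direction and size that define these patterns are fixed by the rule that sorted them, and their medians are descriptions.

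**Figure D1:**
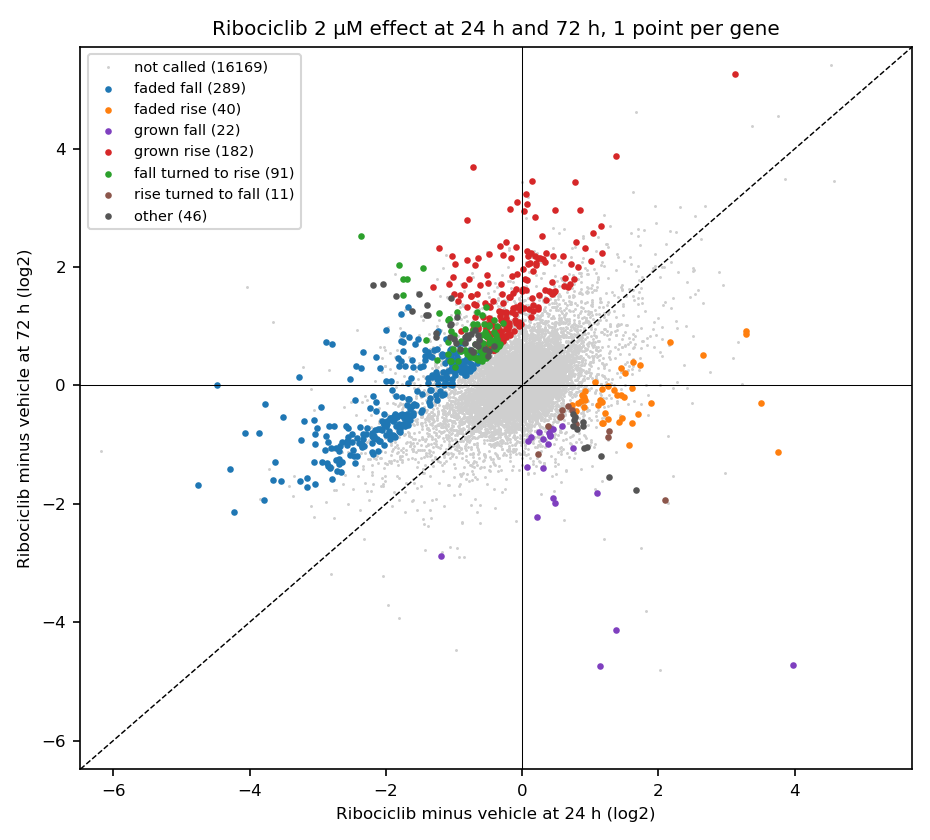
Difference between ribociclib 2 µM and vehicle on the log2(normalised count + 1) scale at 24 h (horizontal axis) and 72 h (vertical axis), with 1 point for each of 16850 genes. Coloured points are the 681 genes called for a change with time, sorted into 6 patterns and a remainder, and the dashed line marks equal effects. The 289 faded falls lie to the left of zero and above the line, and the 182 grown rises lie above zero and above the line.

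Seen from the early response, 686 genes (4.07%) were lower under ribociclib at 24 h and 235 (1.39%) were higher. Of the 686, 148 were also called lower at 72 h. For 377 the change with time was upward past the adjusted p, which includes falls that turned into rises. The median effect of the 686 was -1.58 at 24 h and -0.64 at 72 h. Of the 235 higher genes, 86 were called higher at 72 h and 48 had a downward change past the adjusted p. The 72 h response was tilted the other way, with 489 higher genes (2.90%) and 254 lower genes (1.51%). Of the 254, 148 had been called lower at 24 h. Of the 489, 86 had been called higher at 24 h, and their median effect at 24 h was 0.44 against 1.51 at 72 h.

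Vehicle cells also changed between the times, which enters every value above. Between 24 h and 72 h of vehicle, 33 genes rose and 140 fell (1.03% in all), against 595 that rose and 188 that fell under ribociclib (4.65%). In the faded falls the vehicle moved more than the ribociclib libraries for 23 of 289 genes, and in the falls turned to rises for 4 of 91. It did so for 78 of the 182 grown rises, and 66 of the 182 were past the adjusted p in vehicle on its own, against 7.50% of all genes. The same vehicle libraries enter the rule that sorts genes into patterns, so an excess over all genes is partly built in. Grown rises were the pattern in which a decline in vehicle most often made up the larger part of the change (the plot of vehicle against ribociclib changes). They were also weakly expressed, with a median of 47.1 normalised counts over the 12 libraries against 370 for all genes tested. Faded rises (35.5) and grown falls (41.2) were equally low, whereas faded falls (229) and falls turned to rises (397) were not.

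**Figure D2:**
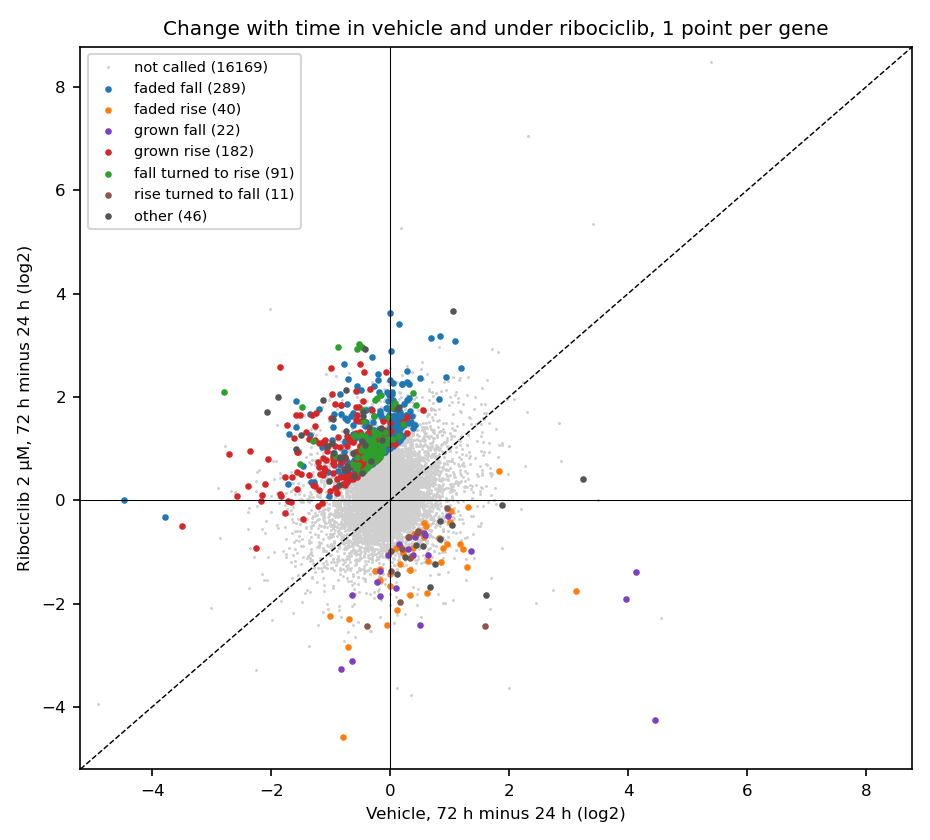
Change from 24 h to 72 h in vehicle (horizontal axis) and under ribociclib 2 µM (vertical axis) on the log2(normalised count + 1) scale, with 1 point for each of 16850 genes and the colours of the patterns of change. Points on the dashed line changed equally in both. Faded falls and falls turned to rises sit mainly above zero on the vertical axis with small vehicle changes, while many grown rises lie left of zero, where vehicle declined.

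The proliferation lists moved together toward vehicle, to different extents (the plot of list medians). All genes in a list were written down from general knowledge, with earlier results of these data known. Among 92 genes of mitotic entry, spindle and kinetochore, 79 (85.9%) had an effect that was higher at 72 h past the adjusted p, against 10.5% of all genes. A total of 57 were called, against 3.54% of all genes. No member had a lower effect, and none did at an unadjusted p under 0.05 in limma. The median effect of this list was -1.81 at 24 h and -0.69 at 72 h. Replication-dependent histones, with 54 of 63 genes high enough to test, went from -2.21 to -1.21, with 35 higher (64.8%) and 16 called. Origin licensing and firing (33 genes, -0.95 to -0.54) had 20 higher, DNA synthesis and nucleotide supply (39 genes, -1.10 to -0.61) also had 20, and homologous recombination and Fanconi genes (27 genes, -0.98 to -0.39) had 15. The D-type cyclin, CDK4/6 and RB pathway list went from -0.63 to -0.35, with 7 of 31 genes higher and 2 lower. In vehicle alone the medians of these 6 lists changed by no more than 0.18 over the same time. In vehicle 11 of the 54 histone genes rose past the adjusted p, against 3.85% of all genes.

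**Figure D3:**
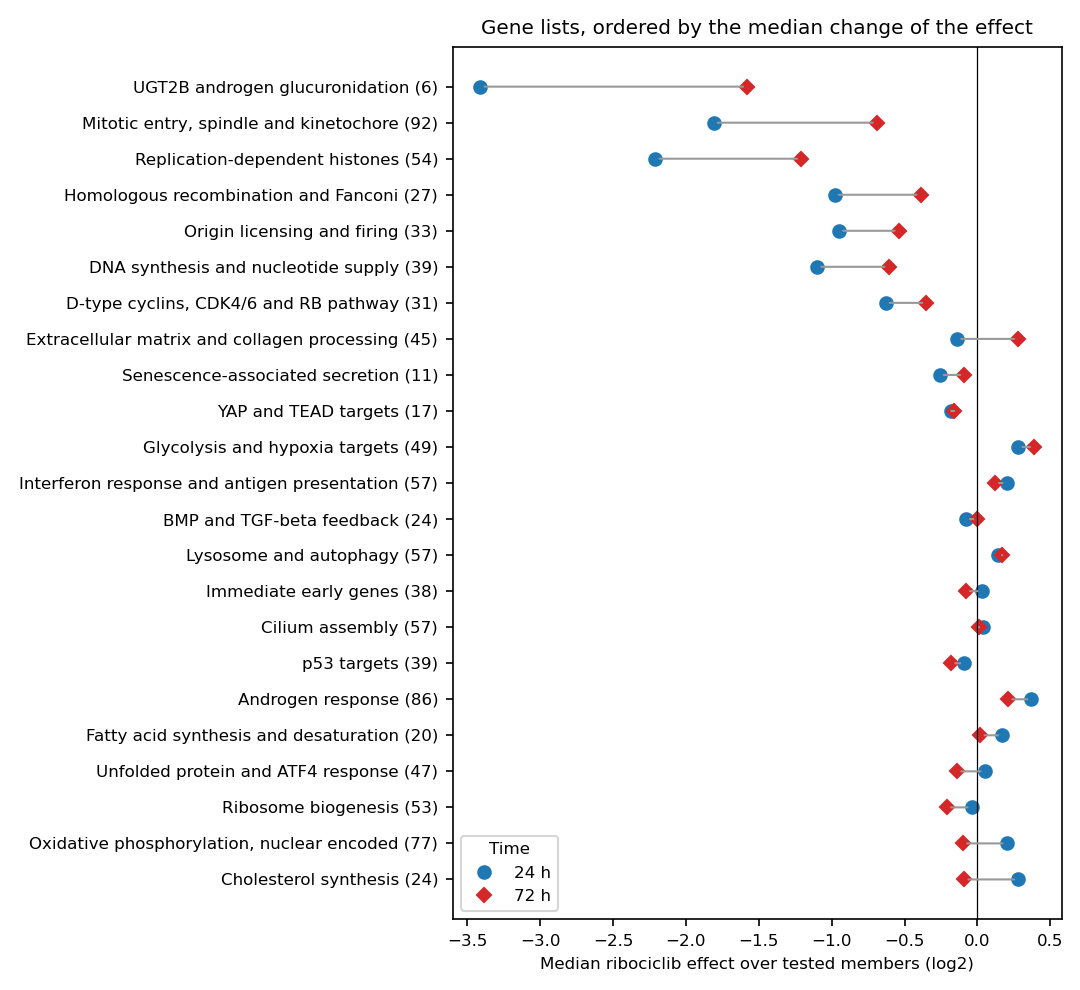
Median difference between ribociclib 2 µM and vehicle (log2 scale) over the tested members of 23 gene lists at 24 h (circles) and 72 h (diamonds), with the number of members in brackets and the lists ordered by the median change. The UGT2B, mitotic and histone lists lie furthest below zero at 24 h and are closer to zero at 72 h, and the oxidative phosphorylation and cholesterol synthesis lists cross from above to below zero.

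The promoters of these lists differ in the short elements they hold, which is why 4 are shown. In RefSeq promoters of GRCh38.p14 running from 250 bases before to 50 after the gene start, the CHR element TTTGAA, the element bound by the MuvB core, was found on either strand in 46 of 77 mitotic promoters (59.7%), 17 of 49 histone promoters (34.7%), 1 of 27 licensing promoters (3.7%) and 2 of 33 DNA synthesis promoters (6.1%). Over all 27305 promoters of the table the share was 15.4%. An E2F site, searched as TTTCCCGC, TTTCGCGC, TTTGCCGC or TTTGGCGC, was in 9.1% of mitotic, 48.1% of licensing, 36.4% of DNA synthesis and 24.5% of histone promoters, against 3.3% of all. The CCAAT box, bound by NF-Y and searched as CCAAT on either strand, was in 70.1%, 63.0%, 48.5% and 83.7% of them, against 35.7% of all. None of these search strings contains another. A match is a description of the letters and not a bound site. The 120 bases before the start of 4 genes named below were chosen because they hold a searched string, which is in capitals.
GTSE1, chr22:46296750-46296869, plus strand, with a CHR element and a CCAAT box: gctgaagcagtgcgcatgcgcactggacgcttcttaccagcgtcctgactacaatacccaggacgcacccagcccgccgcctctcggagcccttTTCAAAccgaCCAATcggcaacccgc
H2BC14, chr6:27814902-27815021, plus strand, with a CCAAT box on each strand: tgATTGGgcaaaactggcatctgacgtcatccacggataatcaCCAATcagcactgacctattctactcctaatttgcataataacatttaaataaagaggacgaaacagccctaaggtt
E2F2, chr1:23531234-23531353, minus strand, with an E2F site: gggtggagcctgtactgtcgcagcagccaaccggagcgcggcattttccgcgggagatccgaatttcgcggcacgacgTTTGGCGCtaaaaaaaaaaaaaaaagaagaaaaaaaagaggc
TYMS, chr18:657533-657652, plus strand, with an E2F site: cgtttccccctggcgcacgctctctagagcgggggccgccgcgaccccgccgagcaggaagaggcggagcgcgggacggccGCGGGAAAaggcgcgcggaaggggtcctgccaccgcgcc

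NUSAP1 and GTSE1 had the largest change with time in the mitotic list. NUSAP1 (chr15:41320794-41381050, GRCh38, plus strand) encodes a protein that bundles spindle microtubules. Its normalised counts were 3542, 3351 and 3448 in vehicle at 24 h, 470.4, 481.2 and 494.1 under ribociclib at 24 h, 3094, 3801 and 3122 in vehicle at 72 h and 2010, 2364 and 1847 under ribociclib at 72 h. All ribociclib libraries were below all vehicle libraries at both times, and the 72 h ribociclib libraries lay far above those of 24 h. The effect went from -2.84 ± 0.11 (SE, n = 3) to -0.69 ± 0.11, a change of 2.15 ± 0.16 (limma adjusted p = 2.95e-11). An unnamed gene on the same strand shares 2938 of its exonic bases, so its reads may be split. GTSE1, whose product acts on p53 and on microtubules in G2 and mitosis and whose promoter is printed above, had 882.5, 942.0 and 909.2 in vehicle and 143.6, 164.9 and 100.4 under ribociclib at 24 h. At 72 h it had 931.5, 953.0 and 909.7 in vehicle and 574.2, 616.3 and 539.9 under ribociclib. Again no groups overlapped between the treatments, and the change was 2.07 ± 0.20 (limma adjusted p = 5.64e-09).

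Other mitotic genes, chosen after their values were seen to give the range, went from -3.04 to -0.98 (AURKB, the chromosomal passenger kinase), from -2.88 to -0.85 (KIF20A, a cytokinesis kinesin) and from -2.58 to -0.69 (KIFC1, a spindle kinesin). At the lower end of those past the adjusted p were SMC2, a condensin subunit, from -0.71 to -0.43, and CCNB1, cyclin B1, from -1.14 to -0.57. FOXM1, the transcription factor of this programme, had 3447, 3589 and 3289 normalised counts in vehicle and 833.0, 914.3 and 831.3 under ribociclib at 24 h, then 3664, 3560 and 3608 in vehicle and 1810, 1828 and 1734 under ribociclib at 72 h. Its change of 0.99 ± 0.09 (limma adjusted p = 3.77e-09) fell just under the size needed for a call. FOXM1 shares 782 exonic bases with ITFG2 on the opposite strand, and whether counting used strand is not given in the sources used here.

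**Figure D4:**
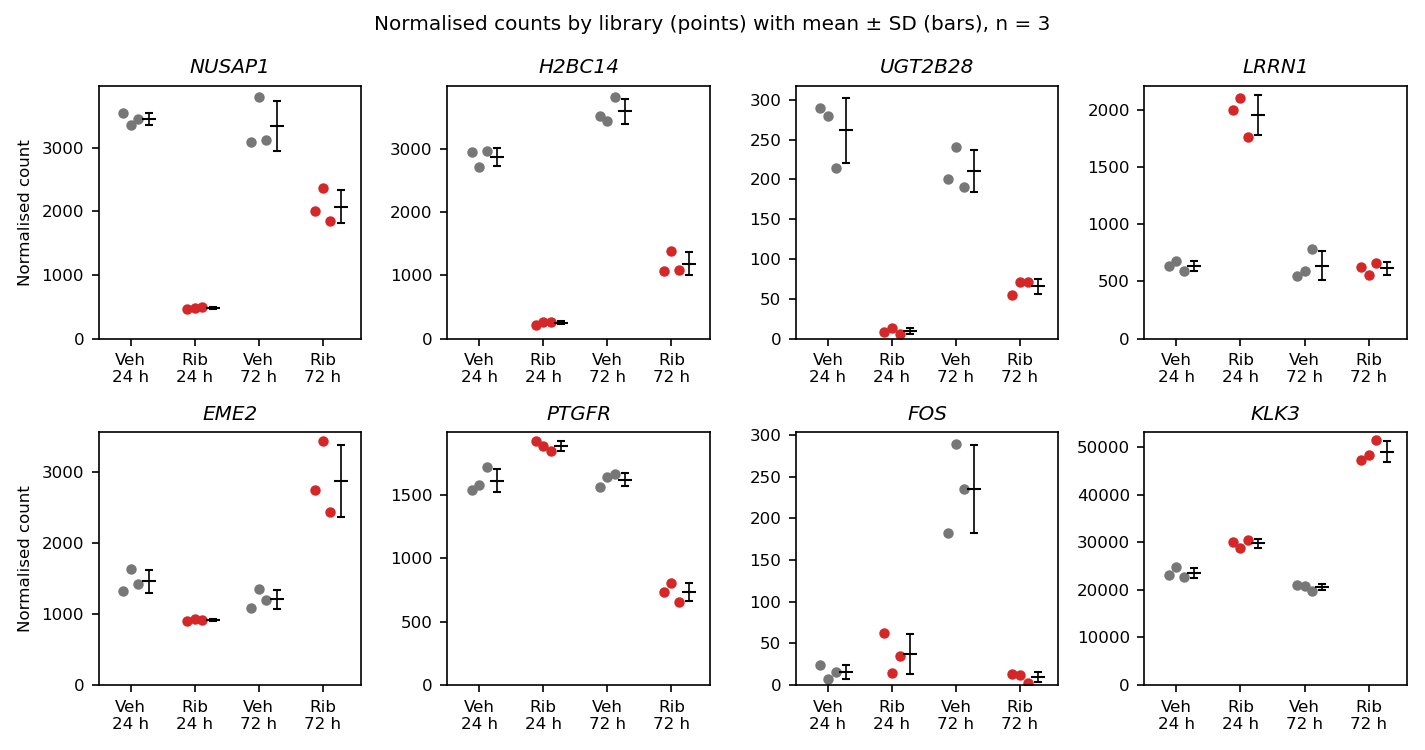
Normalised counts of 8 genes in each of the 12 libraries (points, vehicle grey and ribociclib 2 µM red) with the mean ± SD of each group (bars, n = 3), on linear axes that start at 0. NUSAP1, H2BC14 and UGT2B28 fall at 24 h and recover in part, LRRN1 returns to vehicle, EME2 and PTGFR change sides, FOS differs at 72 h where vehicle is high, and KLK3 rises further.

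H2BC14 and H3C12 were called among the histone genes. H2BC14, a replication-dependent H2B gene (chr6:27815022-27815489, promoter above), had 2949, 2712 and 2973 normalised counts in vehicle and 220.1, 255.8 and 267.0 under ribociclib at 24 h. At 72 h the counts were 3529, 3449 and 3820 in vehicle and 1076, 1392 and 1087 under ribociclib, so that the treated libraries remained below all vehicle libraries. The effect went from -3.54 ± 0.14 to -1.61 ± 0.14, with a change of 1.93 ± 0.20 (limma adjusted p = 1.77e-08). H3C12, an H3 gene, went from -3.79 ± 0.40 to -1.93 ± 0.40 at low counts (7.505 to 10.02 under ribociclib at 24 h, 45.94 to 53.86 at 72 h), and it shares 346 bases with H2AC17. Of the 54 histone genes, 37 were called lower at 72 h, compared with 44 at 24 h. The corresponding counts for the mitotic list were 10 and 79 of 92. Over all genes 1.51% were called lower at 72 h and 4.07% at 24 h. Most of these histone transcripts lack a poly(A) tail, and the libraries were made from total RNA.

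For DNA replication, the ribonucleotide reductase subunit gene RRM2 had 3728, 3797 and 4113 normalised counts in vehicle and 426.8, 445.8 and 522.5 under ribociclib at 24 h, and 4362, 3998 and 3624 in vehicle and 1386, 1893 and 1620 under ribociclib at 72 h. The treated libraries rose with time while the vehicle libraries overlapped between the times, and the change was 1.76 ± 0.22 (limma adjusted p = 7.44e-07). TYMS, thymidylate synthase, went from 1965, 1916 and 1884 to 309.2, 287.4 and 322.3 with ribociclib at 24 h, and from 1955, 2178 and 2052 to 929.7, 719.6 and 893.1 at 72 h. Its effect went from -2.65 ± 0.09 to -1.29 ± 0.09, and ENOSF1 overlaps 967 of its exonic bases on the other strand. Among licensing genes, CLSPN, the checkpoint adaptor claspin, went from -2.67 ± 0.12 to -1.02 ± 0.12 and CDC45, a subunit of the replicative helicase, from -2.21 ± 0.17 to -0.86 ± 0.17. ORC4, an origin recognition subunit named after its value was seen, was the member with a lower effect past the adjusted p, from 0.33 to -0.11. The helicase subunits MCM5 (-0.79 to -0.47) and MCM2 (-0.95 to -0.57), named in the same way, had the smallest upward changes among those past the adjusted p. The repair genes FANCA (-1.98 ± 0.15 to -0.59 ± 0.15) and RAD54L (-1.92 ± 0.20 to -0.55 ± 0.20) were both called. FANCA shares 2409 exonic bases with ZNF276 and RAD54L 813 with LRRC41, each on the opposite strand.

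The change with time passed the test for neither CDK4 nor CDK6, the kinases the drug inhibits, nor for CCND1 or RB1. CDK4 had 2267, 2328 and 2410 normalised counts in vehicle and 2199, 2387 and 2352 under ribociclib at 24 h, and 2265, 2590 and 2404 against 2220, 2238 and 2069 at 72 h. The change with time was -0.14 ± 0.08 (limma adjusted p = 0.275). CDK4 shares 1369 of its 3094 exonic bases with TSPAN31 on the opposite strand, so its counts may include reads of that gene. CDK6 was low, at 184.9, 30.99 and 122.4 in vehicle at 24 h and 26.56 to 43.83 under ribociclib, then 14.76 to 18.96 and 14.66 to 19.96 at 72 h. The vehicle replicates at 24 h themselves spanned 30.99 to 184.9, and the change of 1.43 ± 0.83 did not pass (limma adjusted p = 0.246). CCND1, cyclin D1, was higher under ribociclib at both times (0.56 ± 0.05 and 0.44 ± 0.05), with a change of -0.12 ± 0.07 that did not pass (limma adjusted p = 0.234) and that was 0.03 under quantile normalisation. RB1 changed by -0.11 ± 0.11 (limma adjusted p = 0.536).

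E2F2 and E2F8, which are themselves known E2F targets, did pass. E2F2 (promoter above) had 600.6, 475.0 and 442.0 normalised counts in vehicle, 74.84, 118.1 and 89.85 under ribociclib at 24 h, 601.9, 537.0 and 494.4 in vehicle at 72 h and 286.7, 181.4 and 251.9 under ribociclib at 72 h. The change was 1.23 ± 0.24 (limma adjusted p = 0.000408). E2F8, an atypical repressor E2F, went from -2.82 ± 0.28 to -1.40 ± 0.28 (change 1.42 ± 0.39, limma adjusted p = 0.00917). In the same list, TFDP1, the E2F dimerisation partner (-0.30 to -0.82), and CDKN2A, the INK4 and ARF gene (-0.63 to -1.12), went further down past the adjusted p. These 2 were named after their values were seen.

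UGT2B genes had the deepest early falls of any list and also recovered in part. All 6 members tested, of 7 in the list, were called lower at 24 h (median -3.41), and 5 were called lower at 72 h (median -1.58). Over all genes 4.07% were called lower at 24 h and 1.51% at 72 h. The change was higher past the adjusted p for 5 of 6 UGT2B genes, against 10.5% of all genes. UGT2B28 (chr4:69280475-69295050) had 290.2, 279.7 and 214.6 normalised counts in vehicle, 8.729, 13.14 and 5.437 under ribociclib at 24 h, 200.5, 240.9 and 189.9 in vehicle at 72 h and 54.30, 70.61 and 71.22 under ribociclib at 72 h. Its effect went from -4.76 ± 0.28 to -1.67 ± 0.28, a change of 3.09 ± 0.39 (limma adjusted p = 6.6e-07). UGT2B11 went from -4.23 ± 0.13 to -2.15 ± 0.13 (change 2.08 ± 0.19, limma adjusted p = 1.99e-09). These genes are close paralogues, and reads may be shared between them.

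The androgen response list split. Its median effect was 0.37 at 24 h and 0.21 at 72 h, and of 86 members 13 had a higher effect at 72 h and 30 a lower one past the adjusted p (15.1% and 34.9%, against 10.5% and 9.66% of all genes). KLK3, which encodes prostate-specific antigen, had 23130, 24800 and 22730 normalised counts in vehicle and 29960, 28770 and 30540 under ribociclib at 24 h, then 20970, 20800 and 19800 in vehicle and 47190, 48310 and 51460 under ribociclib at 72 h. The groups did not overlap at either time, and the effect went from 0.34 ± 0.05 to 1.25 ± 0.05 (change 0.92 ± 0.07, limma adjusted p = 1.66e-10). TMPRSS2, a serine protease gene, went from 1.11 ± 0.07 to 1.80 ± 0.07 (change 0.70 ± 0.10, limma adjusted p = 5.99e-06). With time it moved by -0.34 ± 0.07 in vehicle and by 0.36 ± 0.07 under ribociclib. Named after their values were seen, KLK2 (0.63 to 1.40), ACP3, prostatic acid phosphatase (0.53 to 1.45), and TRPM8, a cation channel gene (1.17 to 2.08), moved the same way. Members with a higher effect were the smaller side of this split, so these genes do not stand for the list. The median change of the list was -0.06. Among the 12 luminal markers, 4 had a higher effect at 72 h and 6 a lower one past the adjusted p (median change -0.14). TARP, read from the T cell receptor gamma locus in prostate cells, turned from -0.59 ± 0.14 to 1.19 ± 0.14, with vehicle falling from 238.9 ± 24.6 (SD, n = 3) to 125.0 ± 10.9 while ribociclib rose from between 146.3 and 164.2 to between 266.6 and 299.3. TARP shares 966 bases with TRGC1 on the same strand. The list also holds INSIG1 (0.27 to -0.37) and HMGCS1 (0.56 to -0.07), which belong to the cholesterol list as well.

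Cholesterol synthesis and oxidative phosphorylation genes moved from above vehicle at 24 h to slightly below it at 72 h. For 24 cholesterol synthesis genes the median effect went from 0.28 to -0.09, with 15 lower past the adjusted p (62.5%, against 9.66% of all genes) and none higher, also at an unadjusted p under 0.05. STARD4, a sterol carrier named after its value was seen, went from 0.74 to 0.01. For 77 nuclear-encoded oxidative phosphorylation genes the median went from 0.20 to -0.10, with 47 lower (61.0%) and none higher, again also at an unadjusted p under 0.05. At 24 h, 45 of these 77 genes were higher than vehicle past the adjusted p, against 16.4% of all genes, and 1 was lower. At 72 h, 4 were higher and 29 lower, against 15.3% and 15.5% of all genes. The changes were small: the NADH dehydrogenase subunit NDUFA12 went from 0.19 to -0.35 and cytochrome c (CYCS) from -0.06 to -0.55. None of these genes was called, since no change reached 1. Vehicle contributed, with medians of 0.18 and 0.16 for its own change with time in the 2 lists and 10 and 19 members that rose past the adjusted p, against 3.85% of all genes. Under ribociclib the medians of the change with time were -0.19 and -0.13. There 13 and 29 members fell past the adjusted p, against 13.9% of all genes, and 1 rose in each list. Ribosome biogenesis genes went from -0.04 to -0.21, with 19 of 53 lower and 1 higher. The median change of each of these 3 lists kept its sign under quantile normalisation and equal library totals. Their median effects at 24 h and at 72 h were not computed under those settings.

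Genes of the unfolded protein and ATF4 response went from a median of 0.05 to -0.14. The effect was lower at 72 h past the adjusted p for 18 of 47 and higher for 1 (38.3% and 2.1%, against 9.66% and 10.5% of all genes). Against vehicle, 14 members were higher and 17 lower past the adjusted p at 24 h, and 13 were higher and 23 lower at 72 h. The members with the largest changes included genes of amino acid supply that ATF4 is known to drive. CHAC1, a glutathione-degrading enzyme, had 309.7, 306.2 and 361.7 normalised counts in vehicle and 124.5, 203.8 and 111.3 under ribociclib at 24 h, and 304.4, 278.2 and 284.9 against 60.44, 19.40 and 46.81 at 72 h. The groups did not overlap, and the fall grew from -1.19 ± 0.25 to -2.89 ± 0.25 (limma adjusted p = 0.000721). Named after their values were seen, ASNS, asparagine synthetase, went from -0.72 to -1.49, PSAT1, of serine synthesis, from -0.70 to -1.38, and SLC7A11, the cystine transporter, from -0.93 to -1.69. HSP90B1, an endoplasmic reticulum chaperone, was the member with a higher effect past the adjusted p, from 0.26 to 0.52.

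Among falls that faded outside these lists, MAN1A1, a Golgi mannosidase, had 67.57, 74.02 and 82.39 normalised counts in vehicle and 10.14, 4.888 and 10.41 under ribociclib at 24 h. At 72 h it had 108.6, 120.9 and 132.0 in vehicle and 66.55, 89.46 and 84.10 under ribociclib. The treated libraries were still below vehicle, yet the remaining effect of -0.59 ± 0.31 did not pass (limma adjusted p = 0.151). UGT8, the ceramide galactosyltransferase, went from -3.62 ± 0.28 to -1.29 ± 0.28. ITIH4, a plasma protease inhibitor family member, went from -1.76 ± 0.42 to 0.58 ± 0.42 with wide spread under ribociclib at 24 h (47.46, 32.71 and 7.969), and it shares 3275 exonic bases with an unnamed gene on the same strand. ACACB, acetyl-CoA carboxylase 2, went from -0.95 ± 0.17 to 0.37 ± 0.17.

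In the 4 genes with the largest change among rises that faded, no effect was past the adjusted p at 72 h. LRRN1, a leucine-rich repeat membrane protein gene, had 631.4, 681.5 and 592.9 normalised counts in vehicle and 1997, 2103 and 1762 under ribociclib at 24 h, against 547.5, 588.6 and 780.7 and 624.3, 555.2 and 665.2 at 72 h. The treatments were clearly apart at 24 h and overlapped at 72 h, with a change of -1.66 ± 0.17 (limma adjusted p = 9.08e-09). ACTRT3, an actin-related protein gene (chr3:169766921-169769561), went from 1.49 ± 0.14 to -0.20 ± 0.14. Its neighbour MYNN, a zinc finger protein gene (chr3:169773396-169789716), is among the rises that turned into falls, with 754.3, 782.4 and 706.9 in vehicle and 1168, 1267 and 1271 under ribociclib at 24 h and 828.1, 866.6 and 888.2 against 681.1, 583.1 and 672.6 at 72 h. The groups did not overlap at either time and stood in opposite order (change -1.14 ± 0.10, limma adjusted p = 9.8e-10). SUSD4, a complement regulator, went from 1.22 ± 0.18 to -0.46 ± 0.18 and the fibrillar collagen gene COL5A2 from 1.45 ± 0.22 to -0.15 ± 0.22.

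PTGFR, the prostaglandin F receptor, was the most precisely measured of the rises turned to falls. It had 1539, 1578 and 1715 normalised counts in vehicle and 1926, 1883 and 1840 under ribociclib at 24 h, and 1560, 1636 and 1662 against 735.0, 802.2 and 657.0 at 72 h. Vehicle was level, the early rise of 0.23 ± 0.06 was small, and the later fall was -1.15 ± 0.06 (change -1.38 ± 0.09, limma adjusted p = 1.83e-12). GPC6, a heparan sulphate proteoglycan, went from 1.27 ± 0.21 to -0.78 ± 0.21, with counts under ribociclib of 179.9 to 208.9 at 24 h and 32.31 to 39.05 at 72 h. GOLPH3-DT, a noncoding transcript divergent from GOLPH3, went from 0.78 ± 0.18 to -0.66 ± 0.18, and GOLPH3 overlaps 360 of its bases.

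Falls that turned into rises were rich in G and C. The median GC content of their exons was 59.8% (91 genes), against 47.9% for all genes tested and 44.7% to 50.7% in the other patterns, a description with no test. With a trend in GC content and length removed from each library before the fit, 77 genes had this pattern. The part of base composition in this result was otherwise not tested. EME2, a subunit of a structure-specific endonuclease, had 1324, 1631 and 1420 normalised counts in vehicle and 903.5, 922.7 and 921.6 under ribociclib at 24 h, and 1082, 1351 and 1191 against 2742, 3429 and 2440 at 72 h. The treated libraries were all below vehicle and then all above it (change 1.90 ± 0.16, limma adjusted p = 6.51e-10), and SPSB3 overlaps 2073 of its exonic bases on the other strand. NRBP2, a pseudokinase gene, had 386.6, 350.8 and 316.7 against 192.3, 147.9 and 169.7 at 24 h, and 239.8, 320.5 and 227.0 against 510.6, 415.0 and 561.9 at 72 h. Its groups did not overlap at either time. TM4SF1, a tetraspanin-like surface protein gene, went from -1.42 ± 0.27 to 0.77 ± 0.27, and COL7A1, anchoring fibril collagen, from -1.09 ± 0.28 to 1.11 ± 0.28.

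Of 45 extracellular matrix genes, 13 had a higher effect at 72 h (28.9%, against 10.5% of all genes) and 2 a lower one (4.4%, against 9.66%), and 7 and 2 were called. Besides COL7A1, LAMA1, a laminin chain, changed by 1.67 ± 0.47 (limma adjusted p = 0.0112), with neither single time past the threshold. Without replicate 2 of vehicle at 24 h, the value for LAMA1 was 1.30 with limma adjusted p = 0.0508. The 2 that went down were COL5A2 and THBS1, a matricellular glycoprotein (1.73 to 0.35, named after its value was seen).

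In 5 of the 22 grown falls the vehicle libraries moved more than the treated ones, with FOS among the 5. FOS, an immediate early transcription factor, had 24.12, 7.017 and 15.06 normalised counts in vehicle and 62.37, 13.96 and 35.13 under ribociclib at 24 h, where the groups overlapped. At 72 h it had 182.2, 288.6 and 235.1 in vehicle and 12.70, 12.52 and 2.485 under ribociclib. Vehicle rose by 3.97 ± 0.70 on the log2 scale and ribociclib fell by 1.91 (SE 0.70), giving a change of -5.88 ± 1.00 (limma adjusted p = 5.63e-05). Over the immediate early list, 4 of 38 genes were higher (10.5%) and 6 lower (15.8%) past the adjusted p, against 10.5% and 9.66% of all genes. SPRED1, an inhibitor of RAS signalling, changed by -1.20 ± 0.36, but without replicate 1 of vehicle at 72 h (295.8, against 196.7 and 203.0 in the others) the value was -1.01 with limma adjusted p = 0.053. IGFBP3, an insulin-like growth factor binding protein, went from 0.06 ± 0.17 to -1.37 ± 0.17, with 176.5 to 179.8 counts under ribociclib at 24 h and 77.84 to 89.29 at 72 h.

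Among the grown rises, MMP7, the matrix metalloproteinase matrilysin, had 35.39, 33.45 and 44.58 normalised counts in vehicle and 39.28, 32.10 and 46.84 under ribociclib at 24 h, then 10.56, 11.16 and 9.935 in vehicle and 98.61, 81.56 and 157.4 under ribociclib at 72 h. The groups overlapped at 24 h and were widely apart at 72 h, with vehicle moving by -1.74 ± 0.33 and ribociclib by 1.45 ± 0.33. ANGPT2, an angiopoietin, went from 1.38 ± 0.41 to 3.88 ± 0.41 at low and variable counts (86.73 to 271.6 under ribociclib at 72 h, 7.541 to 14.73 in vehicle). INAVA, an adaptor of innate immune signalling, went from -0.28 ± 0.41 to 2.20 ± 0.41, and its vehicle fell from 84.94 ± 11.8 to 28.27 ± 3.72 (SD, n = 3). CYP3A5, a drug- and steroid-oxidising cytochrome P450, moved mainly under ribociclib, with 30.34, 42.67 and 40.39 normalised counts at 24 h and 149.2, 133.8 and 152.6 at 72 h, while vehicle had 50.06 to 58.64 and then 35.90 to 41.00.

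The remaining lists are given by their counts past the adjusted p, to be read against 10.5% higher and 9.66% lower over all genes. Higher and lower members numbered 8 and 6 of 57 for lysosome and autophagy, 2 and 5 of 39 for p53 targets, 3 and 5 of 57 for interferon response, 4 and 4 of 57 for cilium assembly, 3 and 6 of 20 (30.0% lower) for fatty acid synthesis and 2 and 2 of 49 for glycolysis and hypoxia targets. For BMP and TGF-beta feedback they were 1 and 4 of 24 (4.2% and 16.7%), for YAP and TEAD targets 0 and 1 of 17, and for senescence-associated secretion 0 and 2 of 11. At an unadjusted p under 0.05 the last 2 lists had 4 and 1 higher members in limma. Glycolysis and hypoxia targets were higher under ribociclib at both times (medians 0.28 and 0.39, 22 and 27 members higher past the adjusted p, against 16.4% and 15.3% of all genes). In the interferon list IRF9, a subunit of the interferon-activated factor ISGF3, went from -0.81 ± 0.16 to 0.25 ± 0.16. Its change of 1.06 ± 0.23 (limma adjusted p = 0.000895) dropped under 1 without replicate 1 of vehicle at 72 h (0.91) or replicate 3 of ribociclib at 72 h (0.96), and an unnamed gene on the same strand shares 1544 of its exonic bases.

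At the matched dose of 2 µM, the change with time under ribociclib was compared directly with that under atirmociclib, a CDK4-selective inhibitor, and AU2-94, the CDK4 inhibitor under study. The vehicle libraries cancel in these contrasts. Against atirmociclib, 8 genes changed more toward higher expression under ribociclib and 19 toward lower (0.0475% and 0.113% of genes, 0.160% in all). Against AU2-94 there were 2 and 2 genes (0.0119% each, 0.0237% in all). Counts this low depended on single libraries, with 3 to 8 and 9 to 21 against atirmociclib, and 2 to 6 and 1 to 4 against AU2-94, when each library was left out.

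Differences from atirmociclib went in both directions among cell cycle genes, with PTTG1 and BIRC5 rising more with time under ribociclib and CLSPN less. PTTG1, securin, had 408.0, 391.6 and 347.9 normalised counts at 24 h and 738.2, 1083 and 831.3 at 72 h under ribociclib, but 634.4, 445.3 and 484.5 and then 411.0, 415.1 and 390.4 under atirmociclib. The 72 h libraries were all above those of 24 h under ribociclib and all below them under atirmociclib (difference 1.54 ± 0.15, limma adjusted p = 2.88e-07). Under AU2-94 they were 374.4, 386.4 and 409.6 and then 1087, 965.8 and 1164, and the difference of -0.26 ± 0.15 from ribociclib did not pass (limma adjusted p = 0.658). BIRC5, survivin, went from 450.8 ± 37.0 to 1272 ± 100 under ribociclib and from 474.7 ± 68.3 to 612.0 ± 122 under atirmociclib (SD, n = 3 each), a difference of 1.14 ± 0.23 (limma adjusted p = 0.00663) that was 0.98 without replicate 1 of atirmociclib at 72 h. Over the mitotic list, 5 of 92 genes passed toward higher values against atirmociclib and none toward lower in limma (22 and 3 at an unadjusted p under 0.05), with a median difference of 0.09. Over all genes 0.386% and 0.807% passed in these directions. CLSPN went from 259.9, 205.1 and 256.6 to 701.3, 728.8 and 731.2 under ribociclib and from 70.32, 55.80 and 53.53 to 412.7, 322.7 and 335.4 under atirmociclib, a difference of -0.97 ± 0.17 (limma adjusted p = 0.00182) that is just under the size needed for a call. Of 33 licensing genes, none passed toward higher values against atirmociclib in limma and 2 passed toward lower, CLSPN and MCM5 (1 and 10 at an unadjusted p under 0.05). Against AU2-94 no mitotic gene passed in limma in either direction, as against 0.184% of all genes (2 higher and 24 lower at an unadjusted p under 0.05, median -0.17), which does not show that the agents act alike.

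Of the other genes that differed from atirmociclib, PCDH11X, a protocadherin gene, differed by -1.43 ± 0.27 (limma adjusted p = 0.00295) and has a near-identical copy on the Y chromosome, so its reads are uncertain. NMU, neuromedin U, differed by 1.48 ± 0.36 (limma adjusted p = 0.0339) and lost the call without any 1 of 7 libraries. From AU2-94, ribociclib differed in ID1 and ID3, inhibitors of basic helix-loop-helix factors that BMP signalling induces. ID1 went from 766.8, 827.1 and 788.2 to 226.3, 392.7 and 207.1 under ribociclib and from 986.5, 942.8 and 806.9 to 116.3, 56.26 and 88.85 under AU2-94, a difference of 1.84 ± 0.33 (limma adjusted p = 0.00678). ID3 differed by 1.41 ± 0.24 (limma adjusted p = 0.00439). TGM3, a transglutaminase, reached 117.0, 149.3 and 125.4 at 72 h under AU2-94 against 57.68, 40.23 and 67.07 under ribociclib, a difference in change of -1.46 ± 0.25 (limma adjusted p = 0.00439), although an unnamed gene on the same strand shares 2553 of its exonic bases. PAG1, an adaptor of SRC family kinases, differed by -1.43 ± 0.29 (limma adjusted p = 0.0181) and lost the call without any 1 of 4 libraries.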

How the data were processed

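LNCaP libraries were made by the authors from TRIzol-extracted total RNA with the Universal Plus Total RNA-Seq kit. Per the labels and the study's methods, reads were aligned to GRCh38 with STAR 2.6.1d in an nf-core/rnaseq workflow and scaled with DESeq2; the read counter, its annotation and its strand setting are not given in the sources used here. The deposited table holds 1 signal value per gene and library, a normalised count that is not whole, and whole reads could not be recovered from it, so a log-scale test was used and depth is known only as the sum of normalised values. Each column was matched to its sample by library name.

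Genes with at least 10 normalised counts in at least 3 of 36 libraries were kept (16850). limma 3.58.1 in R 4.3.3 (lmFit, contrasts.fit, eBayes with trend) was fitted to log2(value + 1) with 12 groups. Effects are differences on that scale, which understates changes of low genes, and are given ± SE; called means a Benjamini-Hochberg adjusted p of at most 0.05 and a size of at least 1. Faded: past at 24 h and smaller at 72 h. Grown: past at 72 h and larger in absolute size than at 24 h, whether or not past at 24 h. Turned: past at both with opposite signs. The fit was tested on simulated data. Genes named were those the study targets, up to 4 per pattern, up to 2 called per list and up to 3 per direction against another agent, by size of change, with a mean of at least 50 normalised counts and no group wholly at or under 3; others are marked as named after their values were seen. Results for some genes that this rule names are not reported here. The members and lists were chosen with earlier results of these data known.

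The labels give the replicate number as a batch, so a fit with it as a block was run; deviations of same-numbered libraries correlated at 0.0090 on average (-0.04 to 0.06, 18 pairs) and of others at -0.0045 (36 pairs). Overlaps and near-identical copies came from GENCODE release 44 and BLAST 2.17.0. Promoters came from RefSeq (GRCh38.p14), and at least 80% of each list reported had one; shares over the patterns are not given because fewer genes matched. Alternatives tried were other pseudocounts, filters, scalings, variance models, sample sets, a GC and length trend, and leaving out each library.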

Additional observations from a re-analysis of the deposited data

Results flagged for a closer look

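All groups hold 3 libraries, so no library was tested for standing apart. The results here were flagged because a test of the difference itself (limma, adjusted over all genes) found the ribociclib effect to differ between 24 h and 72 h, or the change with time to differ between agents. In all, 596 genes had a higher and 85 a lower effect at 72 h, and the differences between agents were 8 higher and 19 lower against atirmociclib and 2 and 2 against AU2-94.

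On the log2 scale, the change between the times was 2.15 for NUSAP1, 2.07 for GTSE1, 1.47 for BIRC5 and 1.16 for PTTG1 among mitotic genes. It was 1.93 for H2BC14 and 1.85 for H3C12 among histones. Replication and repair genes changed by 1.76 (RRM2), 1.65 (CLSPN), 1.36 (TYMS), 1.35 (CDC45), 1.38 (FANCA) and 1.37 (RAD54L), and the E2F genes by 1.42 (E2F8) and 1.23 (E2F2). UGT2B28 and UGT2B11 changed by 3.09 and 2.08.

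Other falls that faded changed by 2.46 (MAN1A1), 2.34 (ITIH4 and UGT8), 1.32 (ACACB) and 1.06 (IRF9). Rises that faded changed by -1.69 (ACTRT3), -1.68 (SUSD4), -1.66 (LRRN1) and -1.61 (COL5A2). Falls that grew changed by -5.88 (FOS), -1.69 (CHAC1), -1.44 (IGFBP3), -1.37 (ID1) and -1.20 (SPRED1), and rises that grew by 3.19 (MMP7), 2.50 (ANGPT2), 2.48 (INAVA) and 2.38 (CYP3A5). Of these grown effects, only those of CHAC1 and ANGPT2 were past the adjusted p at both times.

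Effects that changed sign moved by 2.20 (COL7A1), 2.19 (TM4SF1), 1.97 (NRBP2), 1.90 (EME2) and 1.78 (TARP) upwards and by -2.05 (GPC6), -1.44 (GOLPH3-DT), -1.38 (PTGFR) and -1.14 (MYNN) downwards. LAMA1 changed by 1.67 with neither time past the threshold. Between agents, ribociclib minus atirmociclib was 1.54 for PTTG1, 1.48 for NMU, 1.14 for BIRC5 and -1.43 for PCDH11X. Ribociclib minus AU2-94 was 1.84 for ID1, 1.41 for ID3, -1.46 for TGM3 and -1.43 for PAG1.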

How the results depend on the processing

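Precision is limited by 3 libraries per group, by the lack of whole reads and, for most grown and faded rises, by low counts. With a mean of at least 100 normalised counts required, the change had 322 higher and 29 lower genes, 24 h had 71 and 342, 72 h had 155 and 115, vehicle 7 and 34, ribociclib with time 266 and 44, and the differences from atirmociclib 3 and 11, with 1 lower against AU2-94; fewer genes were tested. With a pseudocount of 8, 147 genes were higher at 24 h, 302 at 72 h, 80 lower in vehicle and 108 lower under ribociclib with time, and 4 lower against AU2-94. Without a filter, 56 genes rose in vehicle, 4 were higher against atirmociclib and 5 against AU2-94. Quantile normalisation gave 143 genes with a lower change, among them all 85, and turned the value for CCND1 to 0.0323; the cause was not tested. The replicate block changed no call of a named gene and gave 593 higher and 81 lower changes, 584 and 79 of them shared. Among named genes, FOXM1 passed 1 under quantile normalisation (1.01) and equal library totals (1.04), IRF9 dropped under 1 with quantile normalisation (0.93) and a GC and length trend (0.99), and NMU lost its call without a filter (adjusted p = 0.068).

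Leaving out each library gave 536 to 609 higher and 64 to 89 lower changes. The vehicle rises ranged from 20 to 34 (20 without replicate 2 of vehicle at 72 h). Against atirmociclib the counts ranged from 3 to 8 (lowest without replicate 1 of ribociclib at 24 h) and from 9 to 21 (lowest without replicate 1 of atirmociclib at 72 h). Against AU2-94 they ranged from 2 to 6 (highest without replicate 3 of AU2-94 at 24 h) and from 1 to 4. Among the patterns, the faded rises, grown falls and rises turned to falls numbered 63, 41 and 21 under quantile normalisation; requiring a mean of at least 100 gave 173 faded falls, 11 faded rises, 7 grown falls and 62 grown rises; faded rises were 26 without replicate 1 of ribociclib at 24 h, and rises turned to falls 7 without replicate 2 of vehicle at 72 h. Leaving out libraries of the other agents, and the GC and length trend, were added after seeing the data. In the fit of 12 libraries alone, contrasts with other agents could not be had.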
